A study of Mus musculus with 18 samples.

Results

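*Kif12*, *Gc*, *AY761185*, *Ccdc148*, *Lrrtm1* and *1700011H14Rik* are 6 of the 24346 genes measured in the mouse IS-caput epididymis, the initial segment with the caput. They were chosen by their FPKM (reads scaled to transcript length and library size) in sham-operated mice, where they were near 0 or low, and after removal of both testes (bilateral orchidectomy, OD), where they were strongly raised. Their bilateral OD and sham values are therefore given as a description, without a test. The rule of the choice names no value of the other 4 groups, which carry the tests below. The genes were chosen with earlier results of these data known, so these groups may not be wholly independent of the choice.

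Bulk RNA-seq was done on 18 libraries in 6 groups of 3. The operated groups were wild-type males, operated at 8 weeks of age and sampled 4 weeks later, at 12 weeks. They were bilateral OD, sham operation, and the ipsilateral and contralateral sides of unilateral OD, where only the testis of the ipsilateral side was removed. By the study's methods both sides came from the same 3 B6D1F1 mice, so the contralateral epididymis kept its testis and lay in a mouse that had lost the other one. The remaining groups were untreated *Nell2*-/- mice and wild-type (WT) mice, both sampled at 14 weeks. The study describes its *Nell2*-/- transcriptomes as done in earlier work, by an identical procedure. Its methods name a strain for the operated mice only. *Nell2*-/- mice keep both testes but lack NELL2, a protein that testicular germ cells release into the lumen. Whole tissue was measured, so a change in the share of a cell type and a change of RNA per cell cannot be told apart.

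The proximal epididymis is governed by the testis along a pair of routes. Androgen arrives by the circulation (endocrine), and proteins such as NELL2 arrive in the luminal fluid through the efferent duct (lumicrine), where they drive differentiation of the initial segment epithelium. Bilateral OD takes away both routes. Unilateral OD takes away luminal input on the ipsilateral side while the remaining testis still supplies the circulation, and loss of *Nell2* removes a luminal ligand only.

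The 6 genes have different known functions and are scattered over 6 chromosomes. *Kif12* encodes a kinesin motor expressed in kidney tubules. *Gc* encodes the vitamin D binding protein, a plasma protein of the albumin family made by hepatocytes. *AY761185* is a short protein-coding gene beside the alpha-defensin cluster. *Ccdc148* and *1700011H14Rik* (named *Ccdc198* by RefSeq) encode coiled-coil proteins. *Lrrtm1* encodes a leucine-rich repeat membrane protein that organizes synapses in neurons.

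In the RefSeq annotation of GRCm38, *Kif12* lies on chromosome 4 from 63157948 to 63172145 and *Gc* on chromosome 5 from 89417511 to 89457898. *AY761185* lies on chromosome 8 from 20943694 to 20944748 and *Ccdc148* on chromosome 2 from 58821697 to 59160828. *Lrrtm1* lies on chromosome 6 from 77229210 to 77259915, inside the alpha-catenin gene *Ctnna2*, and *1700011H14Rik* on chromosome 14 from 49226358 to 49245445. The 250 bases before the start of *AY761185*, the gene with the highest transcript level after bilateral OD, are shown 5′ to 3′ on the strand of the gene, with a TATA box in capitals (RefSeq, GRCm38.p6, chr8:20944749-20944998, minus strand).
AY761185: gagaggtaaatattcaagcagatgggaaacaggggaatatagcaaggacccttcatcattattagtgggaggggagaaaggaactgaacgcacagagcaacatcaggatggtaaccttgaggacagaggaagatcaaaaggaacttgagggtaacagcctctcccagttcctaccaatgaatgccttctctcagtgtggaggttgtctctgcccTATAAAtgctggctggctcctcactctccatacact

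Both strands of the 250 bases before the start that the RefSeq promoter table gives for each of the 6 genes were searched for 3 motifs. That start can belong to another transcript than the one annotated in full. The *Lrrtm1* window, at bases 77242227 to 77242476 of chromosome 6, lies inside the annotated gene. The *Ccdc148* window lies partly inside its gene and reaches into *Pkp4*, and the *Kif12* and *1700011H14Rik* windows reach a few bases into their genes. The TATA box TATAAA was found in *AY761185*, 36 to 31 bases before the start, and 12.4% of 32851 windows of the same length held it. The forkhead motif TGTTTAC was found in *1700011H14Rik*, 224 to 218 bases before the start, against 3.17% of windows. The nuclear receptor half-site AGGTCA (14% of windows) was in none of the 6. None of these 3 motifs was thus shared among the 6 windows. With the shares of all windows given here, sharing by all 6 was unlikely beforehand, so nothing is drawn from this. These are matches of letters, and binding was not measured. The *Ccdc148* window stood apart in base composition, with 75.2% GC and 31 CpG, where the median window had 52.4% GC and 6 CpG and 5.19% of windows had as many CpG.

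Before the results, some libraries need a word. Among values under 0.1 FPKM, the FPKM worth of 1 read relative to sham replicate 1 ranged from 0.601 to 0.776 in bilateral OD libraries, against 0.868 to 1 for sham, so a lower value could be seen in the bilateral OD libraries. It was 0.73 to 0.856 in ipsilateral and 0.868 to 0.936 in contralateral libraries, and 0.724 to 0.904 in *Nell2*-/- and 0.856 to 1 in WT libraries. The *Nell2* transcript itself was listed at 0, 0.0274 and 0 FPKM in *Nell2*-/- libraries, against 0.130, 0.0302 and 0.0610 FPKM in WT libraries. At these levels it hardly checks the labels. *Lcn8*, a lipocalin of principal cells that depends on luminal input, had 2.23 FPKM on average in *Nell2*-/- and 14369 FPKM in WT libraries. Bilateral OD replicate 1 had more adipocyte marker signal than the others, and sham replicate 3 stood apart for *AY761185* and *Gc*, as described with the values, and for the lipocalin *Lcn5*. *Lcn5* had 144, 111 and 92.1 FPKM in bilateral OD libraries, against 1507, 1612 and 5708 FPKM in sham libraries.

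*AY761185* had the highest level of the 6. It was measured at 8562, 7014 and 6870.4 FPKM in the 3 bilateral OD libraries, against 67.2, 54.3 and 327 FPKM in sham libraries. Every bilateral OD library was far above every sham library, and sham replicate 3 was well above the other sham libraries. By mean FPKM *AY761185* ranked 3 of all genes after bilateral OD, with 1.38% of all summed FPKM, and 627 in sham. The ratio of means was 50.1, and 123 without sham replicate 3. The gene was also higher on the ipsilateral side and in *Nell2*-/-. It had 1613, 1296 and 1602 FPKM in ipsilateral libraries, against 547, 466 and 431 FPKM in contralateral libraries. *Nell2*-/- libraries had 342, 267 and 307 FPKM, against 60.6, 45.4 and 91.4 FPKM in WT libraries. Neither pair of groups overlapped. The log2 difference was 1.64 ± 0.50 (SE) between ipsilateral and contralateral (limma, adjusted p = 0.0228) and 2.26 ± 0.50 between *Nell2*-/- and WT (adjusted p = 0.00304). Log2 differences are throughout on the log2(FPKM + 0.1) scale, with n = 3 libraries a group, and adjusted p are by the Benjamini-Hochberg procedure over 17302 genes. The first call is close to its threshold in this fit, where all 6 groups share 1 estimate of the spread. It was lost when ipsilateral replicate 1 or 3 or contralateral replicate 2 or 3 was left out, with adjusted p of 0.0579 to 0.0646. With only the ipsilateral and contralateral libraries in the fit, the limma adjusted p was 1.68e-05. Without sham replicate 3, a choice made after seeing the data, it was 2.52e-05.

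*Gc*, for the vitamin D binding protein, behaved similarly at a lower level. Bilateral OD libraries had 379, 296 and 289 FPKM, against 4.30, 3.46 and 14.4 FPKM in sham libraries. Again sham replicate 3 was the highest sham library, and the ratio of means was 43.5, or 82.7 without it. Ipsilateral libraries had 69.8, 56.1 and 63.6 FPKM, against 19.8, 15.99 and 17.1 FPKM in contralateral libraries. *Nell2*-/- libraries had 71.2, 57.3 and 47.6 FPKM, against 10.3, 7.69 and 12.3 FPKM in WT libraries. The groups of each pair lay apart, and ipsilateral and *Nell2*-/- libraries overlapped each other. *Gc* rose on the ipsilateral side (log2 difference 1.84 ± 0.39, limma adjusted p = 0.00247) and in *Nell2*-/- (2.54 ± 0.39, adjusted p = 0.000168).

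**Figure D1:**
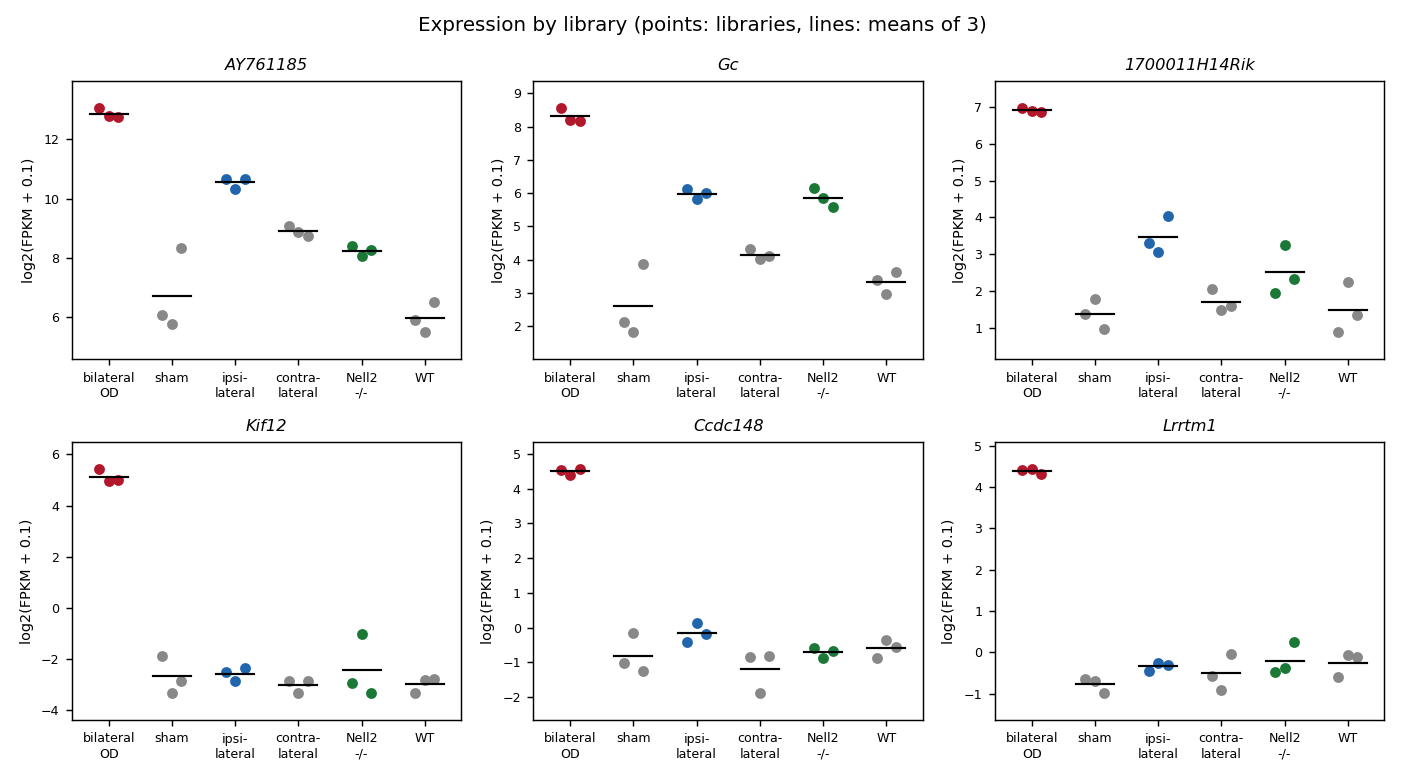
Log2(FPKM + 0.1) of the 6 genes in each of the 18 libraries, with 1 panel and vertical scale per gene, points for libraries and lines for the means of the 3 libraries of a group. Every gene is highest in the 3 bilateral OD libraries, and *AY761185* is next highest in the ipsilateral libraries, at 1296 to 1613 FPKM, while ipsilateral and *Nell2*-/- points of *Gc* lie at about the same height.

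*1700011H14Rik* was the third gene of the 6 by level. It had 126, 119 and 115 FPKM in bilateral OD libraries, against 2.52, 3.37 and 1.87 FPKM in sham libraries, a ratio of means of 46.5. Ipsilateral libraries had 9.77, 8.17 and 16.2 FPKM, against 4.03, 2.70 and 2.91 FPKM in contralateral libraries, and these did not overlap. *Nell2*-/- libraries had 3.77, 9.36 and 4.96 FPKM, against 1.75, 4.65 and 2.44 FPKM in WT libraries. Here the ranges overlapped, with *Nell2*-/- replicate 1 below WT replicate 2. The gene rose on the ipsilateral side (log2 difference 1.75 ± 0.37, limma adjusted p = 0.00208). The *Nell2*-/- difference of 1.02 ± 0.37 passed narrowly (adjusted p = 0.0462) and was lost without *Nell2*-/- replicate 2 or 3 or WT replicate 1 or 3 (adjusted p of 0.0691 to 0.2), and when the fit held only *Nell2*-/- and WT (adjusted p = 0.13) or left out the bilateral OD and sham libraries (adjusted p = 0.0788).

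*Kif12*, *Ccdc148* and *Lrrtm1* were at most 1.09 FPKM in every library except those of bilateral OD. *Kif12* had 43.3, 30.7 and 32.1 FPKM in bilateral OD libraries, against 0.176, 0 and 0.0382 FPKM in sham libraries. The ratio of means, 495, is the highest of the 6 and rests on sham values near 0. On the log2 scale that ratio was 8.95 and moved to 10.85 without sham replicate 1. Ipsilateral libraries had 0.0748, 0.0377 and 0.0964 FPKM, against 0.0380, 0 and 0.0391 FPKM in contralateral libraries. *Nell2*-/- libraries had 0.0318, 0.398 and 0 FPKM, against 0, 0.0438 and 0.0442 FPKM in WT libraries. Both pairs overlapped. The log2 differences were 0.43 ± 0.47 (limma adjusted p = 0.521) for ipsilateral against contralateral and 0.55 ± 0.47 (adjusted p = 0.407) for *Nell2*-/- against WT. No difference was detectable at these levels, and the gene entered these tests only because the bilateral OD libraries passed the filter on low values.

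*Ccdc148* had 22.9, 20.9 and 23.6 FPKM in bilateral OD libraries, against 0.393, 0.797 and 0.319 FPKM in sham libraries, a ratio of means of 44.7. Ipsilateral libraries had 0.646, 0.989 and 0.785 FPKM, against 0.453, 0.171 and 0.466 FPKM in contralateral libraries. These ranges were apart, and the log2 difference was 1.03 ± 0.29 (limma adjusted p = 0.0113). The ipsilateral call was lost without ipsilateral replicate 2 (adjusted p = 0.0529) or contralateral replicate 2 (adjusted p = 0.0745). Of the sham libraries, replicate 2 lay within the ipsilateral range. *Nell2*-/- libraries had 0.567, 0.450 and 0.527 FPKM, against 0.447, 0.678 and 0.579 FPKM in WT libraries, with a log2 difference of -0.11 ± 0.29 (adjusted p = 0.817). Thus the rise on the ipsilateral side was to 3.59% of the mean after bilateral OD.

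*Lrrtm1* varied little among the bilateral OD libraries. It had 21.3, 21.6 and 19.8 FPKM in bilateral OD libraries, against 0.543, 0.517 and 0.405 FPKM in sham libraries, a ratio of means of 42.8. Ipsilateral libraries had 0.628, 0.733 and 0.710 FPKM, against 0.571, 0.435 and 0.864 FPKM in contralateral libraries. *Nell2*-/- libraries had 0.617, 0.667 and 1.09 FPKM, against 0.563, 0.851 and 0.820 FPKM in WT libraries. The groups of these pairs overlapped, and neither comparison passed (log2 difference 0.17 ± 0.23, limma adjusted p = 0.616, and 0.06 ± 0.23, adjusted p = 0.878).

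In all, 4 of the 6 genes (*Gc*, *AY761185*, *Ccdc148* and *1700011H14Rik*) rose on the ipsilateral side, where 16% of all genes tested were called higher. In *Nell2*-/- 3 of the 6 (*Gc*, *AY761185* and *1700011H14Rik*) rose, where 17.8% of all genes were called higher. None was called lower, against 18.6% of all genes in each comparison. The genes were chosen for low sham values, and *Kif12*, *Ccdc148* and *Lrrtm1* were also low in contralateral and WT libraries. They had little room to fall, so nothing is drawn from that count. *Gc*, *AY761185* and *1700011H14Rik* rose in both comparisons, as did 10.3% of all genes tested. The median log2 difference over all genes tested was 0.02 in each of the 3 comparisons. For bilateral OD against sham, where the choice of the genes fixes the answer, 30.4% of all genes were called higher. Ranges lay apart, with the operated or *Nell2*-/- side higher, for 4 of the 6 genes between ipsilateral and contralateral libraries (22.9% of all genes tested) and for 2 of the 6, *Gc* and *AY761185*, between *Nell2*-/- and WT libraries (24.8%). For bilateral OD and sham they lay apart for all 6 by the choice of the genes (31.4% of all genes). All 6 genes passed the filter of 0.1 FPKM in 3 libraries (*Kif12* only through the bilateral OD libraries, so that of the 5 that pass without them 4 and 3 rose). Whether the change on the ipsilateral side differed from that in *Nell2*-/- was tested within the same fit. None of the 6 was called with limma (adjusted p of 0.142 to 0.956), 1 had an unadjusted p under 0.05, and 4.65% of all genes were called. That 1 gene was *Ccdc148*, with a difference of 1.14 ± 0.41 (unadjusted p = 0.014).

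**Figure D2:**
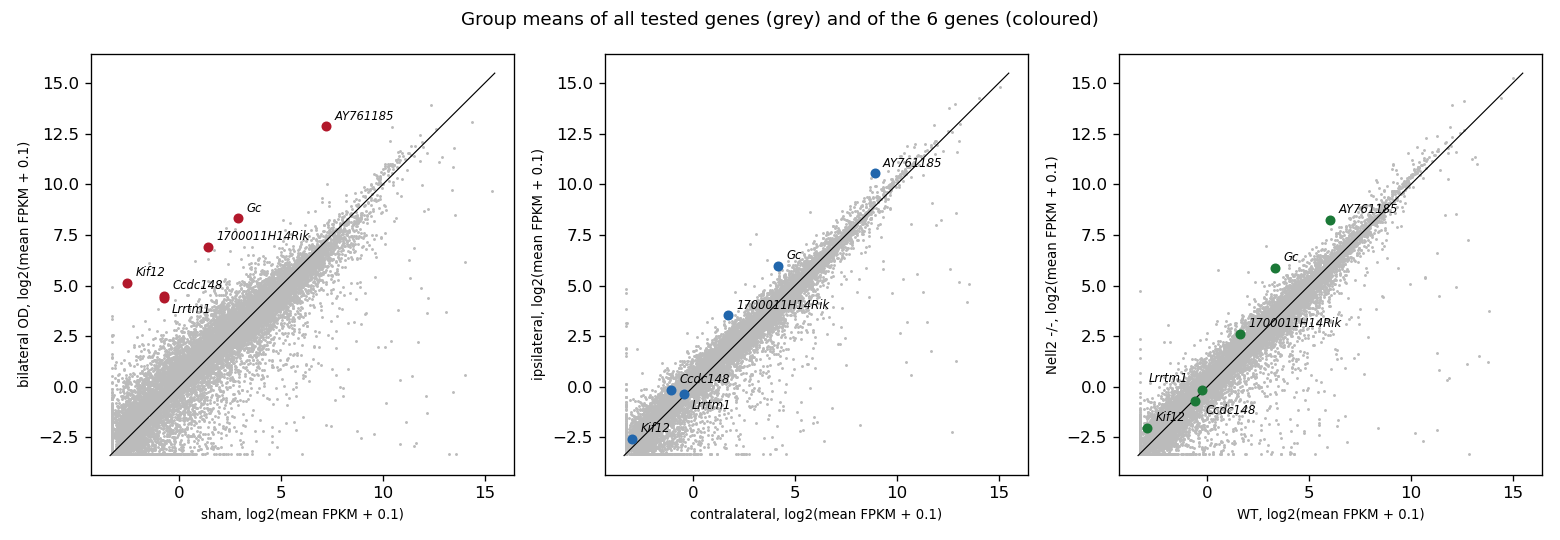
Group means of the 6 genes (coloured) and of all genes tested (grey), as log2(mean FPKM + 0.1), for bilateral OD against sham, ipsilateral against contralateral and *Nell2*-/- against WT, with the line of equal means. The 6 genes lie far above the line for bilateral OD, while *Gc* and *AY761185* are above it in all 3 panels and *Kif12*, *Ccdc148* and *Lrrtm1* lie among the grey points in the other 2 panels.

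Set beside the bilateral OD mean, the ipsilateral mean of *AY761185* was 20.1% and that of *Gc* 19.7%. For *1700011H14Rik* it was 9.48%, for *Lrrtm1* 3.30% and for *Kif12* 0.197%. The *Nell2*-/- mean of *Gc* was 18.3% of the bilateral OD mean, and those of the other 5 genes were 0.405% to 5.02%. Accordingly the order of the 6 groups differed among the genes below bilateral OD. For *AY761185* the order was ipsilateral, contralateral, *Nell2*-/-, sham and WT, and only *Nell2*-/- and sham, and sham and WT, overlapped as neighbours. For *Gc* it was ipsilateral, *Nell2*-/-, contralateral, WT and sham, with overlap between ipsilateral and *Nell2*-/- and between WT and sham. For *1700011H14Rik*, *Ccdc148*, *Lrrtm1* and *Kif12* every neighbouring pair below bilateral OD overlapped. *Nell2*-/- and WT libraries differ from the operated groups in age and operation, and possibly in experiment and strain. These cannot be told apart in shares and orders that span both kinds of groups.

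Contralateral libraries also lay above sham libraries for the 2 genes with the highest levels. The contralateral mean of *AY761185* was 481 ± 59.3 FPKM, against 149 ± 154 FPKM in sham libraries (SD, n = 3 each), and every contralateral library was above every sham library. For *Gc* it was 17.6 ± 1.95 FPKM, against 7.39 ± 6.09 FPKM in sham libraries, again without overlap. For the other 4 genes contralateral and sham ranges overlapped, with ratios of means of 0.360 to 1.28. The sham values were used to choose the genes, so these are descriptions. WT libraries of *AY761185* averaged 65.8 ± 23.4 FPKM, and contralateral libraries were 7.31 times as high. WT and contralateral mice also differed in age and operation, and possibly in experiment and strain. These cannot be told apart in that ratio.

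**Figure D3:**
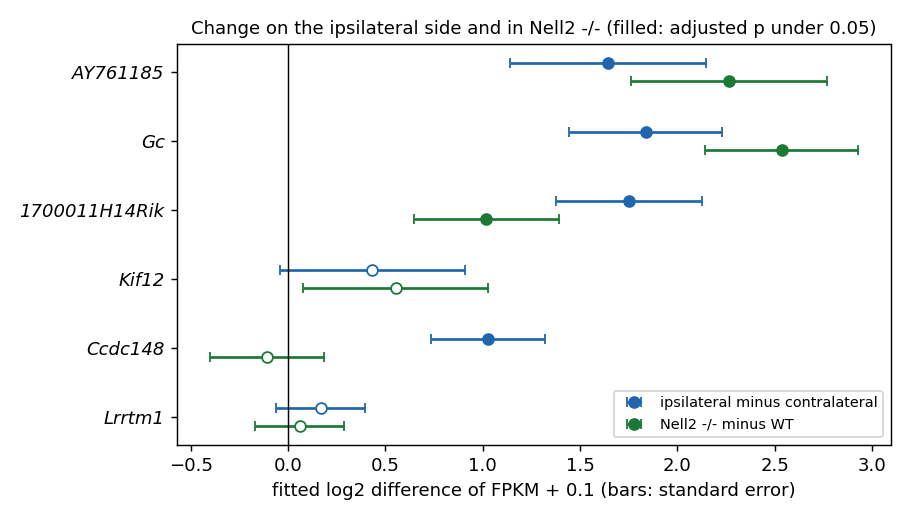
Log2 differences of the 6 genes with their standard errors for ipsilateral minus contralateral and for *Nell2*-/- minus WT (3 libraries a group, log2(FPKM + 0.1) scale) with filled points for adjusted p under 0.05 and a line at 0. *Gc*, *AY761185* and *1700011H14Rik* are filled in both comparisons, *Ccdc148* only for the ipsilateral side, and *Kif12* and *Lrrtm1* in neither.

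How the 6 genes varied together depended on the bilateral OD libraries. Over 18 libraries Pearson's r between pairs of the 6 was 0.746 to 0.980 on the log2(FPKM + 0.1) scale. Over the 15 libraries without bilateral OD it was 0.810 for *Gc* and *AY761185*, 0.694 for *Gc* and *1700011H14Rik*, 0.634 for *AY761185* and *1700011H14Rik*, and at most 0.559 for the other pairs. The libraries share group, and for *Gc* and *AY761185* also the high sham replicate 3, so these values are descriptions.

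A bilateral OD mean of at least 20.9 FPKM with a ratio of at least 42.8 to sham and ranges apart, the lowest values among the 6, was found in 10 genes, the 6 and 4 others. The others, named after their values were seen, were *Cpn1* (a carboxypeptidase N subunit, ratio 275), the amylin gene *Iapp* (48.6), the stanniocalcin gene *Stc1* (46.6) and the miRNA gene *Mir760*, which was listed at 0 in sham. Just below that ratio were *Scg5* (34.5), *Rasl11a* (33.1) and *Tchh* (31.0), and 24 genes with such a mean had a ratio of at least 10. *Cpn1* averaged 69.2 FPKM after bilateral OD and 0.251 FPKM in sham, and also rose on the ipsilateral side (6.13 FPKM, against 0.703 FPKM contralateral) and in *Nell2*-/- (1.30 FPKM, against 0.356 FPKM in WT), with log2 differences of 2.83 ± 0.44 (limma adjusted p = 0.000101) and 1.62 ± 0.44 (adjusted p = 0.00823). Its ipsilateral and *Nell2*-/- means, like those of the 6, were well below its bilateral OD mean.

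The genes next to the 6 on their chromosomes did not share 1 pattern. Just beyond the start of *Ccdc148*, on the opposite strand, begins *Pkp4*, which encodes a plakophilin of cell junctions. Their annotated ends are 21 bases apart. *Pkp4* averaged 80.6 FPKM in bilateral OD and 29.6 FPKM in sham libraries (log2 difference 1.44 ± 0.06, limma adjusted p = 4.36e-13), 36.2 FPKM ipsilateral and 30.1 FPKM contralateral (0.27 ± 0.06, adjusted p = 0.00129), and 28.6 FPKM in *Nell2*-/- and 30.5 FPKM in WT libraries (-0.09 ± 0.06, adjusted p = 0.256). Like *Ccdc148*, it rose on the ipsilateral side and was not called in *Nell2*-/-.

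Beside *AY761185* lie the predicted genes *Gm6040* (20901960 to 20922098) and *Gm15056* (20900606 to 20902456). Their annotated positions overlap, so their values may not be separate observations. *Gm6040* averaged 92.5 FPKM in bilateral OD and 10.3 FPKM in sham libraries, 73.8 FPKM ipsilateral and 32.3 FPKM contralateral, and 57.9 FPKM in *Nell2*-/- and 22.8 FPKM in WT libraries. It rose in all 3 comparisons, with log2 differences of 3.38 ± 0.35, 1.19 ± 0.35 and 1.37 ± 0.35 (limma adjusted p of 1.48e-06, 0.0175 and 0.00699). *Gm15056* rose as well, to 33.8 FPKM in bilateral OD against 10.1 FPKM in sham, to 55.3 FPKM ipsilateral against 20.1 FPKM contralateral and to 58.3 FPKM in *Nell2*-/- against 16.1 FPKM in WT (adjusted p of 0.000739, 0.00915 and 0.00109). In sham libraries *Gm6040* had 6.73, 5.23 and 19.01 FPKM and *Gm15056* had 8.64, 5.24 and 16.4 FPKM, again with replicate 3 the highest. Unlike *AY761185*, *Gm15056* was not highest after bilateral OD. These genes may be close copies of others in the cluster, and how reads were shared among copies is not given in the sources used here. On the other side *Defa21* was listed at 0 in all 18 libraries. Among all genes, 18 carry an alpha-defensin symbol (*Defa*), of which 16 were listed at 0 in all 18 libraries, and the highest value of any was 2.29 FPKM. The beta-defensin gene *Defb33*, on the side of *Gm6040* and *Gm15056*, was listed at 0 in all bilateral OD and ipsilateral libraries. *Defb33* averaged 0.350 FPKM in sham and 0.235 FPKM in contralateral libraries, and passed the test in none of the 3 comparisons.

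Of the other neighbours, *Slc35f4*, a solute carrier gene beside *1700011H14Rik*, had low values that rose in the same comparisons: 0.474 FPKM in bilateral OD and 0.0170 FPKM in sham, 0.349 FPKM ipsilateral and 0.0334 FPKM contralateral, and 0.262 FPKM in *Nell2*-/- where WT was listed at 0 (limma adjusted p of 5.79e-05, 0.00104 and 0.000931). *Slc4a4*, the sodium bicarbonate cotransporter gene beside *Gc*, fell in all 3 comparisons, to 4.60 FPKM in bilateral OD against 19.4 FPKM in sham, to 8.05 FPKM ipsilateral against 18.5 FPKM contralateral, and to 6.05 FPKM in *Nell2*-/- against 16.5 FPKM in WT (adjusted p of 1.89e-12, 1.27e-08 and 7.76e-10). *Ctnna2*, the gene that holds *Lrrtm1*, had 0.0652 FPKM in bilateral OD and 0.0861 FPKM in sham. *Ambp*, beside *Kif12* and like *Gc* a plasma protein gene of hepatocytes, averaged 0.211 FPKM after bilateral OD and was listed at 0 in the other 15 libraries. *Col27a1*, a collagen gene on the other side of *Kif12*, averaged 1.82 FPKM in bilateral OD and 0.746 FPKM in sham. *Naa30*, an acetyltransferase subunit gene beside *1700011H14Rik*, averaged 6.84 FPKM in bilateral OD and 10.9 FPKM in sham. *Upp2* beside *Ccdc148* and *Npffr2* beside *Gc* were at most 0.166 FPKM on average in every group.

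**Figure D4:**
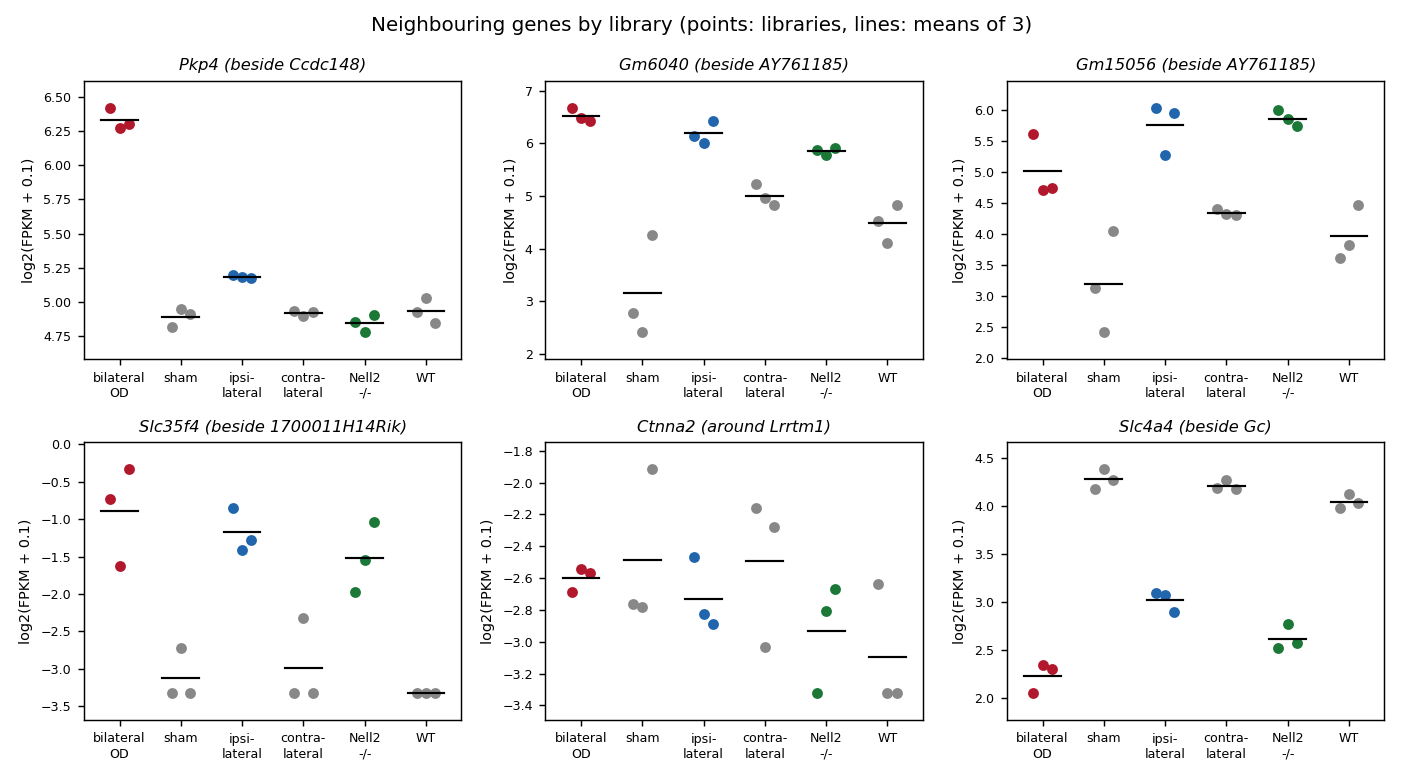
Log2(FPKM + 0.1) by library of 6 genes that lie beside, or in the case of *Ctnna2* around, 5 of the 6 genes, with a vertical scale per panel, points for libraries and lines for the means of the 3 libraries of a group. *Pkp4* is highest in bilateral OD (mean 80.6 FPKM, against 29.6 FPKM in sham), *Gm6040*, *Gm15056* and *Slc35f4* are higher and *Slc4a4* is lower in each of the 3 comparisons, and the *Ctnna2* groups overlap.

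For each of the 6, the 3 genes most like it across the 18 libraries were found by Pearson's r of log2(FPKM + 0.1), among 13905 genes whose highest group mean was at least 1 FPKM. *Kif12* was most like the adhesion molecule gene *L1cam* (r = 0.982), the Notch target *Hes1* (0.981) and the proglucagon gene *Gcg* (0.980). *Gcg* averaged 1.80 FPKM after bilateral OD and was listed at 0 in the other 15 libraries. *Hes1* averaged 84.1 FPKM in bilateral OD and 27.9 FPKM in sham, with no call in the other comparisons. *Lrrtm1* was most like *Gabrp*, a GABA-A receptor subunit gene (r = 0.990), *Rasl11a* (0.985) and the Notch ligand gene *Jag1* (0.982). *Gabrp* averaged 11.4 FPKM after bilateral OD and was listed at 0 in sham. *Ccdc148* was most like the Wnt receptor gene *Fzd8* (r = 0.980), *Pkp4* (0.980) and the zinc finger gene *Zfp7* (0.975).

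The genes most like *Gc* were called in all 3 comparisons, as *Gc* was in those tested. They were the Kazal protease inhibitor gene *Spink8* (r = 0.983), *Pdzk1ip1* (0.982) and the semaphorin gene *Sema3c* (0.982). *Spink8* averaged 7315 FPKM in bilateral OD and 1400 FPKM in sham, 4152 FPKM ipsilateral and 1922 FPKM contralateral, and 3708 FPKM in *Nell2*-/- and 1254 FPKM in WT libraries. The genes most like *AY761185* were *Nt5c3b* (r = 0.955), *Fkbp10* (0.955) and *Tbc1d16* (0.953), all with smaller folds, at most 4.37 for bilateral OD over sham. Those most like *1700011H14Rik* were *Lzts3* (r = 0.990), *Egfl6* (0.981) and the syndecan gene *Sdc4* (0.981). Likeness over 18 libraries is led by the 3 bilateral OD libraries that chose the 6 genes, so it is a description.

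Genes related to the 6 by function were looked at as lists. Of all genes tested, 30.4% rose and 31.4% fell after bilateral OD, 16% rose and 18.6% fell on the ipsilateral side, and 17.8% rose and 18.6% fell in *Nell2*-/-. The count of each list stands beside these shares, and none is called particular to its list. Among 40 other kinesin genes 10 rose and 15 fell after bilateral OD (median log2 difference -0.01, where all genes had 0.02). *Kif5b*, a motor of vesicle transport, fell to 22.3 FPKM in bilateral OD against 36.4 FPKM in sham (-0.71 ± 0.07, limma adjusted p = 2.27e-07). The mitotic motors *Kif11*, *Kif20a* and *Kif22*, named after their values were seen, were among those that fell. *Kif5c*, *Kif9* and *Kifc3*, named in the same way, were among those that rose. On the ipsilateral side 6 rose and 17 fell, and in *Nell2*-/- 6 rose and 13 fell.

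Of 16 genes listed for vitamin D handling, which include calcium channel and calcium-binding genes, 11 were tested. After bilateral OD 6 rose and 3 fell (median 0.40, where 30.4% of all genes rose and 31.4% fell), on the ipsilateral side 5 rose and none fell (0.42, where 16% and 18.6% of all genes did), and in *Nell2*-/- 5 rose and none fell (0.46, where 17.8% and 18.6% did). The calcium channel gene *Trpv6* rose in each, to 13.8 FPKM in bilateral OD against 5.43 FPKM in sham, to 22.8 FPKM ipsilateral against 9.17 FPKM contralateral, and to 15.97 FPKM in *Nell2*-/- against 7.59 FPKM in WT. The vitamin D receptor gene *Vdr* had 3.03 FPKM in bilateral OD and 0.887 FPKM in sham, and the enzyme genes *Cyp27b1* and *Cyp24a1* were near 0 in every group.

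Of 22 genes of the albumin family and of plasma proteins made by the liver 14 were tested. After bilateral OD 4 rose (*Ambp*, *Apoa1*, *Rbp4* and *Hp*) and 5 fell (median -0.37), where 30.4% of all genes rose and 31.4% fell. Of the 14, 1 rose and 2 fell on the ipsilateral side, and none rose and 4 fell in *Nell2*-/-, beside the shares of all genes given above. *Alb*, the albumin gene and a defining hepatocyte marker, was at most 0.016 FPKM on average in any group, and *Apob* was listed at 0 in all 18 libraries. The summed level of the 22 genes was 49.8 to 55.0 FPKM in bilateral OD and 112 to 136 FPKM in sham libraries. Most of it came from *Trf*, the transferrin gene, with 43.5 FPKM in bilateral OD and 90.4 FPKM in sham, and *Fga*, a fibrinogen chain gene, with 0.155 FPKM in bilateral OD and 23.1 FPKM in sham. Of 23 genes of synaptic adhesion related to *Lrrtm1*, 16 were tested. After bilateral OD 8 rose and none fell (median 0.90, where 30.4% of all genes rose and 31.4% fell), among them *Flrt1*, at 2.40 FPKM in bilateral OD and 0.127 FPKM in sham. On the ipsilateral side 4 rose and 1 fell (16% and 18.6% of all genes), and in *Nell2*-/- 6 rose and 1 fell (17.8% and 18.6%). The closest relatives *Lrrtm2*, *Lrrtm3* and *Lrrtm4* were near 0 in every group. Of 9 tested neuron markers 3 rose and 2 fell after bilateral OD, a share near that of all genes, and *Tubb3* was listed at 0 in the bilateral OD and sham libraries. Paneth cells are the known site of alpha-defensins. Of 6 tested Paneth markers 1 rose and 3 fell after bilateral OD (30.4% and 31.4% of all genes), and *Pla2g2a*, *Itln1*, *Reg3g* and *Mptx2* were listed at 0 in all 18 libraries.

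Markers of other cell types were counted in the same way, beside the 30.4% of all genes that rose and the 31.4% that fell after bilateral OD. Of 10 principal cell markers 1 rose and 9 fell. On the ipsilateral side 1 rose and 8 fell (16% and 18.6% of all genes), and in *Nell2*-/- 2 rose and 8 fell (17.8% and 18.6%). Their sum was 2621 to 3357 FPKM in bilateral OD and 83445 to 84236 FPKM in sham libraries, 43851 to 48692 FPKM ipsilateral and 67457 to 69472 FPKM contralateral, and 55256 to 61215 FPKM in *Nell2*-/- and 67427 to 71235 FPKM in WT libraries. Of 8 clear and narrow cell markers 5 rose and 2 fell after bilateral OD, and their sum was 334 to 412 FPKM in bilateral OD and 156 to 158 FPKM in sham libraries. Of 5 adipocyte markers 4 rose, with sums of 78.0, 9.93 and 26.3 FPKM in bilateral OD and 0.938, 6.81 and 0.461 FPKM in sham libraries. Of 4 tested B and plasma cell markers 3 rose, with sums of 1.13 to 3.29 FPKM in bilateral OD and 0.255 to 0.778 FPKM in sham libraries. Of 8 macrophage markers 5 rose after bilateral OD (median 0.31). Of 9 tested markers of the efferent duct, the neighbouring tissue, 6 rose and 2 fell. The list mixes genes of ciliated cells with *Pax8*, *Lrp2* and *Slc9a3*, which are not particular to ciliated cells. The cilium regulator gene *Foxj1* had 22.8 FPKM in bilateral OD and 4.69 FPKM in sham, and the sum of the 9 was 166 to 186 FPKM in bilateral OD and 161 to 174 FPKM in sham libraries. Sperm and late germ cell markers fell in 10 of 12 after bilateral OD and on the ipsilateral side (18.6% of all genes), and in *Nell2*-/- none fell and 1 rose (18.6% and 17.8%). The part of these shifts in the levels of the 6 genes was not tested.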

How the data were processed

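The deposited table holds FPKM computed by the authors. Their notes name TopHat2 2.1.1, Cufflinks 2.2.1 and the mm10 build, and the libraries were made with a stranded mRNA kit. It names them normalized FPKM, and the further normalization is not given in the sources used here. Read depth is unknown from FPKM. Its relative size was estimated from the commonest ratio of values under 0.1 FPKM to those of the same gene in sham replicate 1.

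A linear model with a mean for each of the 6 groups over all 18 libraries was fitted, as log2(FPKM + 0.1), by limma 3.58.1 (R 4.3.3, eBayes with trend and robust, 12 residual degrees of freedom), for the 17302 genes with at least 0.1 FPKM in at least 3 libraries. Of the other 7044 genes 4620 were listed at 0 in every library. Tests were two-sided, and a gene was called at an adjusted p under 0.05 (Benjamini-Hochberg). By the study's methods each operation had 3 mice. For *Nell2*-/- and WT the labels do not say that libraries came from separate mice, so p-values there measure the spread between libraries. With 3 against 3 an exact permutation test cannot go below 0.1. The script was tested on simulated data.

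The 6 genes and the 22 gene lists were chosen with earlier results of these data known. Named by rule were the 6 genes, the 3 genes most like each, their neighbours and up to 4 genes of a list with the highest mean. Other genes were named after their values were seen. Alternatives were 1 or 0.01 FPKM added, no filter or a filter of 1 FPKM, median-ratio scaling, only the libraries compared, the replicate number as a block, the rule of the study (ratio of means over 10 or under 0.1 with an unadjusted P under 0.05) and each library left out. Leaving sham replicate 3, or all bilateral OD and sham libraries, out of the fit was chosen after seeing the data. Positions and promoter sequences are from RefSeq on GRCm38, and *1700011H14Rik* was matched by its NCBI gene number. Some listed genes and motifs are not reported here.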

Additional observations from a re-analysis of the deposited data

How the results depend on the processing

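On the ipsilateral side 4 of the 6 genes were called with either other amount added, either other filter, median-ratio scaling, only the libraries compared, and both fits chosen after seeing the data. Leaving out each library gave 2 to 4, with 2 (*Gc* and *1700011H14Rik*) without contralateral replicate 2. In *Nell2*-/- 3 were called under most of these, 2 with only the libraries compared or without the bilateral OD and sham libraries, and 2 to 3 with each library left out. Under the rule of the study 0 of the 6 were called in each comparison, since no ratio of means reached 10. No difference between the 2 changes was called under the alternatives run for it, which leave out the rule of the study and both fits chosen after seeing the data. No called difference changed sign. Uncalled differences near 0 did when a library was left out: *Lrrtm1* on the ipsilateral side (-0.027 to 0.40), *Kif12* (-0.15 to 1.01), *Ccdc148* (-0.25 to 0.0080) and *Lrrtm1* (-0.17 to 0.20) in *Nell2*-/-, and the difference between the 2 changes for *Kif12* (-0.57 to 0.59) and *Lrrtm1* (-0.087 to 0.34). For *Kif12* that difference was also 0.55 with 0.01 FPKM added, against -0.12.

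The replicate number as a block called 4 and 3 of the 6 genes. With it the *Nell2*-/- difference of *1700011H14Rik* had a limma adjusted p of 0.00336. Same-numbered libraries had r of -0.058 to -0.013 for the sides of unilateral OD and -0.108 to -0.023 for bilateral OD and sham. For *Nell2*-/- and WT they leaned weakly together, with r of 0.052 to 0.158, against -0.168 to 0.116 for libraries of different number. The labels do not say that a number marks a mouse.

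The median log2 ratio of bilateral OD over sham was 5.51, 5.56 with median-ratio scaling and 5.42 to 5.86 with each library left out. Of 204 listed genes tested 133 were called for bilateral OD, 90 for the ipsilateral side and 80 for *Nell2*-/-, and 125 to 135, 73 to 85 and 64 to 75 with each library left out. Under the rule of the study these were 25, 11 and 7, a rule that needs a 10-fold change. Levels under 0.1 FPKM, as of *Kif12* outside bilateral OD, rest on few reads.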

Other observations

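Among markers of other cells of the tissue, 3 of 6 basal cell markers fell after bilateral OD and none rose (median log2 difference -0.39), where 31.4% of all genes fell and 30.4% rose, and their sum was 110 to 203 FPKM in bilateral OD and 189 to 207 FPKM in sham libraries. Of 8 smooth muscle markers 2 fell and none rose, beside the same shares. Of 7 fibroblast markers 2 rose and 3 fell, and of 7 endothelium markers 3 rose and 1 fell. The fibroblast sum differed among the bilateral OD libraries, at 233, 869 and 864 FPKM, against 379, 307 and 295 FPKM in sham libraries.

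In the list of T and NK cell markers 2 of the 6 genes rose and 1 fell after bilateral OD, beside 30.4% and 31.4% of all genes. The fall was *Klrb1c*, a receptor gene of NK cells, which averaged 1.72 FPKM in bilateral OD and 184 FPKM in sham, 4.20 FPKM ipsilateral and 146 FPKM contralateral, and 1.81 FPKM in *Nell2*-/- and 107 FPKM in WT libraries (limma adjusted p of 2.6e-19, 4.04e-17 and 3.89e-18). The other 5 markers of the list were at most 2.35 FPKM on average in every group. The cytotoxic granule gene *Nkg7* rose after bilateral OD, to 2.35 FPKM against 0.314 FPKM in sham (adjusted p = 7.92e-05). Both genes were chosen for mention after their values were seen.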
